A study of Homo sapiens with 9 samples.

Results

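The genes of glycolysis, the pentose phosphate pathway and lactate handling were followed in HaCaT keratinocytes, a line of spontaneously immortalized human skin epithelial cells, after treatment with EGF or bleogen pB1. The 36 genes were taken by symbol from lists of the enzymes, transporters and regulators of these pathways, out of 16199 genes listed in at least 1 library, and no threshold on a measured value was applied. All cells were wild type by their label and were treated after reaching confluence. All 3 groups were kept in serum free medium, without addition in the untreated group, with EGF at 10 nM or with bleogen pB1 at 1 µM, and the treatments lasted 24 h. Bleogen pB1 is a small plant protein that the study describes as an agonist of the EGF receptor. Each group held 3 libraries of polyadenylated RNA. HaCaT is a single cell line, and no source states that the replicates were separate cultures, so the p-values measure the spread between these libraries, which may be technical.

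Glycolysis splits glucose into pyruvate in the cytosol and yields ATP and NADH, and lactate dehydrogenase restores NAD+ by turning pyruvate into lactate, which leaves the cell through monocarboxylate transporters. Pyruvate dehydrogenase kinases hold pyruvate back from oxidation in the mitochondria. The pentose phosphate pathway branches off at glucose 6-phosphate and supplies NADPH and ribose phosphate. Proliferating cells, activated keratinocytes among them, are known to run glycolysis at a high rate, and growth factors and the factors HIF1A and MYC are known to raise transcription of many of its genes. RNA levels are no measure of enzyme activity or of flux, neither of which was measured here.

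The 9 libraries held between 20288417 and 21320994 expected counts, so that 3 counts corresponded to 0.141 to 0.148 CPM, a count divided by library size. By a chi-square per gene of the counts, replicates 1 and 2 were the most different pair within bleogen pB1 (20.5) and within EGF (20.2). The other pairs of replicates in all groups had values of 3.82 to 7.78. Within bleogen pB1, replicate 2 lay farthest from the untreated mean in 58.6% of the 12394 genes tested and replicate 1 nearest in 53.2%. The 6 keratinocyte markers were detected in every library, with a summed level of 11709 to 12881 CPM in untreated cells, 9471 to 9716 with EGF and 11291 to 13301 with bleogen pB1. They did not move together with EGF, since KRT5 (-1.12) and CDH1 (-0.66) fell and KRT14 rose (0.88), with log2 fold changes of 0.08 for DSG3, 0.31 for ITGB4 and 0.31 for SFN, which did not reach the limit of 0.5 set for a call. The 5 fibroblast markers summed to 7.40 to 8.88 CPM in untreated cells, 1.17 to 1.93 with EGF and 5.59 to 8.63 with bleogen pB1, with COL1A2 at 0 in 8 libraries. The 3 leukocyte markers summed to 11.8 to 12.5 CPM in untreated cells, 18.4 to 20.3 with EGF and 10.4 to 11.7 with bleogen pB1, nearly all from CD68, with CD3E at 0 in 7 libraries. The 4 melanocyte markers summed to 1.41 to 1.72 CPM in untreated cells, 0.760 to 1.26 with EGF and 1.13 to 1.66 with bleogen pB1, with DCT at 0 in 8 libraries. The 2 endothelial markers summed to 1.12 to 1.31, 0.241 to 0.441 and 0.527 to 1.31 CPM in the same order, with PECAM1 at 0 in 2 libraries. The summed levels of all 5 lists moved with EGF, with no overlap between EGF and untreated libraries, and their part in the results below was not tested. In bulk RNA, a change in the number of cells of a kind and a change in RNA per cell cannot be told apart.

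The 36 genes held 1.73 to 1.77% of all counts in untreated libraries, 2.18 to 2.23% with EGF and 1.72, 1.96 and 1.82% with bleogen pB1. Without GAPDH, the most abundant of the genes, the untreated range was 1.17 to 1.20% and the EGF range was 1.57 to 1.59%. At least 1 count was listed for 36 of 36 genes, and 34 passed the filter on low counts. SLC2A3, the high-affinity glucose transporter GLUT3, and PDK4, a pyruvate dehydrogenase kinase, did not pass it. Their levels were at most 0.530 and 0.418 CPM, and SLC2A3 had no entry in bleogen pB1 replicate 2, where it counted as 0. The genes differed widely in abundance. By FPKM, a level per length of transcript, GAPDH stood at rank 4 of 16199 in untreated cells, ALDOA at 45, PKM at 67 and ENO1 at 76, whereas HK2 stood at 9026 and PDK1 at 9382.

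**Figure D1:**
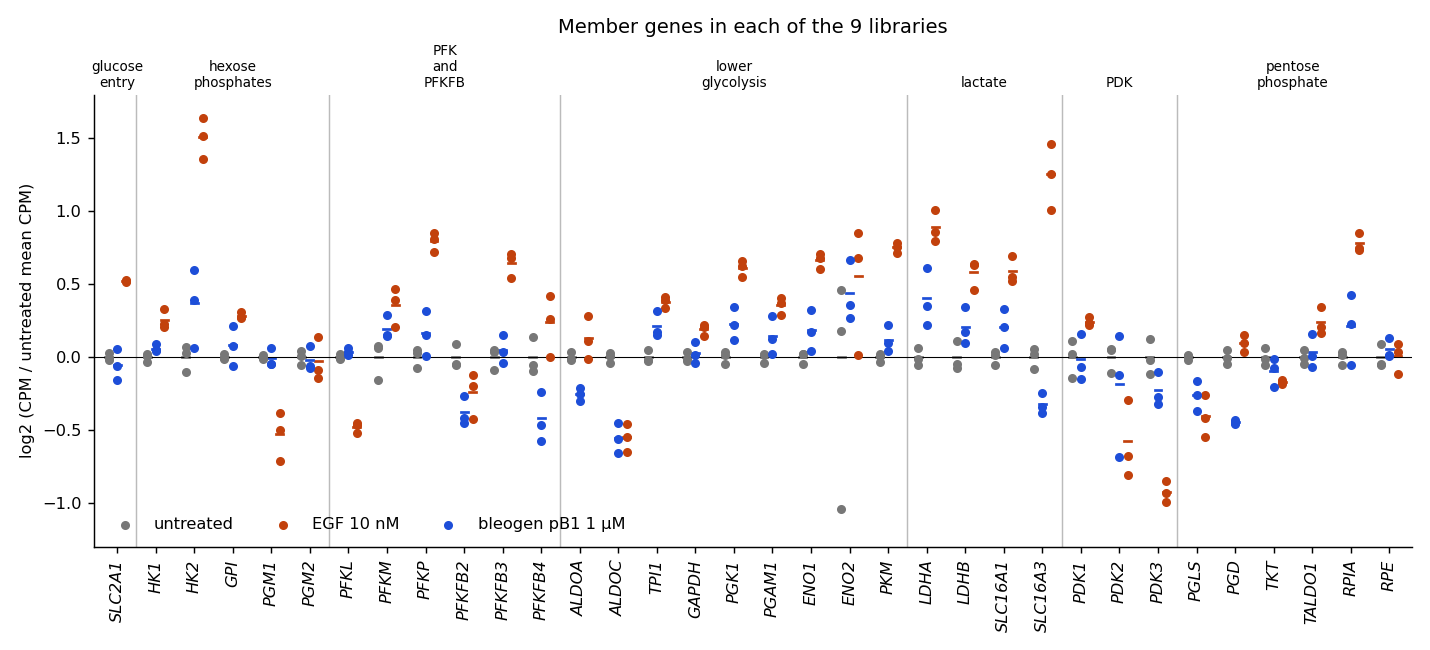
Each point is the log2 ratio of a library's CPM to the mean CPM of the 3 untreated libraries, for the 34 genes that passed the count filter, grouped by step of the pathway, with grey for untreated, red for EGF and blue for bleogen pB1 libraries and a short line at each group mean. The 3 EGF libraries of HK2, LDHA and SLC16A3 lie far above the untreated ones, and those of PGM1, PFKL, ALDOC and PDK3 lie below.

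With EGF, 12 of the 34 genes rose and 4 fell against untreated cells, at an adjusted p of at most 0.05 and a change of at least 0.5 on the log2 scale in edgeR's quasi-likelihood test. Of all 12394 genes tested, 15.1% rose and 21.8% fell by the same rule, 36.9% in all. The 12 rises were spread over glucose entry, hexokinase, phosphofructokinase, lower glycolysis, lactate and 1 pentose phosphate enzyme, and the 4 falls over PGM1, ALDOC, PDK2 and PDK3. The median log2 fold change of the 34 genes was 0.27, beside -0.013 over all genes tested, and 25 of the 34 estimates were positive. In the single EGF libraries the median log2 ratio to the untreated mean was 0.27, 0.30 and 0.27. By adjusted p alone, 19 genes were higher and 8 lower, beside 32.4% and 33.6% of all genes, 66.1% in all. The EGF and untreated libraries did not overlap in 28 genes, 20 higher and 8 lower, beside 34.5% and 35.9% of all genes. A permutation test of 3 against 3 libraries cannot give an exact p under 0.1, so single genes rest on the fit across all genes. With upper-quartile scaling, which shifted the median of all genes to -0.12, the split was 9 higher and 6 lower.

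Bleogen pB1 changed 1 gene, ALDOC, which fell, and raised 0 of the 34 by the same test, beside 0.218% of all genes raised and 1.26% lowered, 1.48% in all. By adjusted p alone, LDHA was higher and ALDOC, PFKFB2 and PGD were lower, beside 1.56% and 2.55% of all genes, 4.11% in all. The unadjusted p was under 0.05 in 16 of the 34 genes. The share of all genes under 0.05 is not given, so this count says nothing particular to these genes. DESeq2 called the same numbers as edgeR, 0 higher and 1 lower. The bleogen pB1 libraries lay above all untreated libraries in 9 genes and below them in 7, beside 14.4% and 14.7% of all genes. The median log2 fold change was 0.04, beside -0.001 over all genes. Replicate 2 was the bleogen pB1 library farthest from the untreated mean in 23 of the 34 genes, beside 58.6% of all genes. The library medians were -0.02, 0.14 and 0.02. Replicate 1 was nearest to untreated cells in 18 of the 34 genes, beside 53.2% of all genes. Without replicate 1, 1 gene rose (HK2) and 2 fell (ALDOC and PFKFB4), and the share of all genes called in that fit is not given. Both treatments were set against the same untreated libraries, so their fold changes share the error of that group.

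The direct comparison of EGF with bleogen pB1 gave 9 genes higher and 3 lower with EGF, beside 10.8% and 18.0% of all genes, 28.8% in all. By adjusted p alone, 21 genes were higher and 3 lower, beside 28.5% and 29.7% of all genes, 58.2% in all. The EGF libraries lay above all bleogen pB1 libraries in 22 genes and below them in 3, beside 30.7% and 31.7% of all genes. The median log2 difference was 0.21, beside -0.012 over all genes. With upper-quartile factors the count higher fell to 6, with limma on log2(FPKM + 0.1) to 5 and with limma on log2(FPKM + 1) to 4, since SLC2A1, PFKFB3, PFKFB4, PGD and RPIA came under the limit of 0.5 in the last of these. By the edgeR fit, the genes higher with EGF in both comparisons were SLC2A1, HK2, PFKP, PFKFB3, PKM, SLC16A3 and RPIA, and the genes lower in both were PGM1 and PDK3. The doses were 10 nM for EGF and 1 µM for bleogen pB1, so this difference is one between these treatments and not between the agonists at a matched dose.

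**Figure D2:**
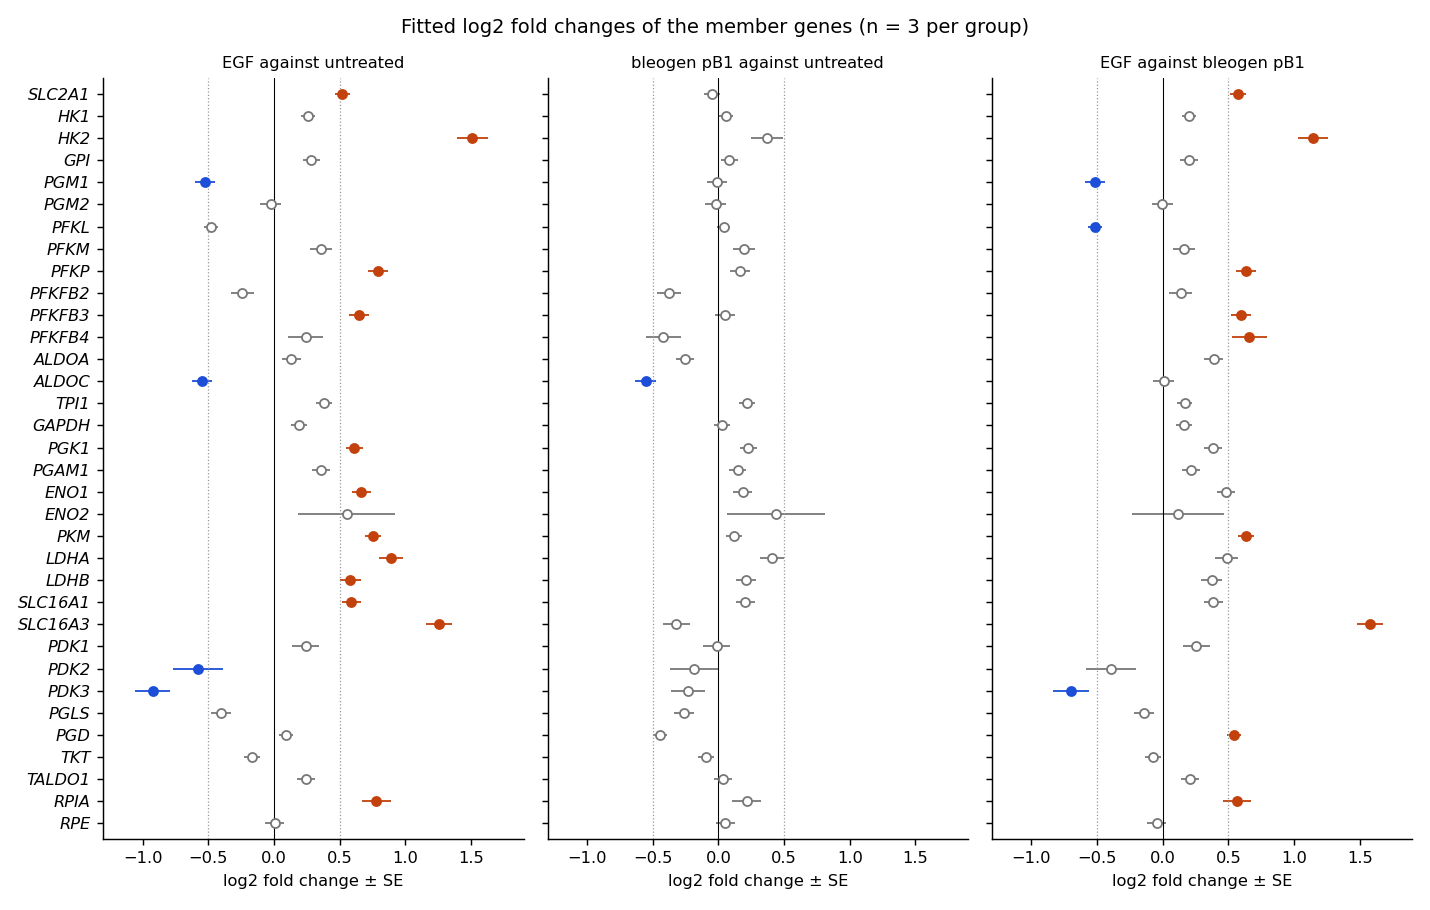
Points are fitted log2 fold changes with their SE (3 libraries a group) of the 34 tested genes in the 3 comparisons, filled red where a gene rose and blue where it fell at adjusted p of at most 0.05 and at least 0.5 on the log2 scale, and open otherwise, with dotted lines at that limit. Filled points number 16 for EGF against untreated, 1 for bleogen pB1 against untreated (ALDOC) and 12 for EGF against bleogen pB1.

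SLC2A1 encodes GLUT1, the main glucose transporter of keratinocytes. Its CPM was 252, 258 and 249 in untreated libraries, 361, 365 and 364 with EGF and 227, 264 and 243 with bleogen pB1. The EGF libraries stood above all 6 others, and the bleogen pB1 libraries overlapped the untreated ones. SLC2A1 rose with EGF (log2 fold change ± SE, 0.52 ± 0.06, adjusted p = 7.51e-06), close to the limit of 0.5. The estimate fell to 0.42 with upper-quartile factors, 0.46 without scaling factors and 0.45 in limma on log2(FPKM + 1), all under that limit.

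HK2, the inducible hexokinase bound to mitochondria, had the largest rise of the 34 genes with EGF. Its CPM was 27.7, 25.3 and 28.4 in untreated libraries, 84.4, 69.6 and 77.7 with EGF and 28.3, 41.1 and 35.6 with bleogen pB1. No EGF library overlapped another group, and bleogen pB1 replicate 1 lay inside the untreated range with the other two above it. HK2 rose with EGF against untreated cells (1.51 ± 0.12, adjusted p = 3.08e-07) and against bleogen pB1 (1.14 ± 0.12, adjusted p = 4.15e-06). With bleogen pB1 its log2 fold change was 0.37 ± 0.12 (adjusted p = 0.0967). Without bleogen pB1 replicate 1 the estimate was 0.50 with an adjusted p of 0.00907 in edgeR, which passed the test. HK1, the constitutive hexokinase, was measured at 131 to 136 CPM in untreated cells and 155 to 168 with EGF, and its log2 fold change of 0.26 ± 0.05 (adjusted p = 0.000943) did not reach the limit of 0.5.

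GPI, which turns glucose 6-phosphate into fructose 6-phosphate, had a log2 fold change of 0.28 with EGF (adjusted p = 0.00199), also under the limit. PGM1, which links glucose 1-phosphate and glycogen to glucose 6-phosphate, moved the other way. Its CPM was 76.4, 77.5 and 76.0 in untreated libraries, 58.7, 46.7 and 54.2 with EGF and 80.2, 74.0 and 74.3 with bleogen pB1. Each EGF library was below all others. PGM1 fell with EGF (-0.53 ± 0.08, adjusted p = 6.32e-05), and without EGF replicate 2 the estimate was -0.43 and the call was lost. It was also lower with EGF than with bleogen pB1 (-0.52 ± 0.08, adjusted p = 0.000108), a call lost without EGF replicate 2 (-0.42) or bleogen pB1 replicate 1 (-0.48). PGM2, a related phosphopentomutase and phosphoglucomutase, had a log2 fold change of -0.02 with EGF (adjusted p = 0.807) and overlapped between the groups.

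Phosphofructokinase commits fructose 6-phosphate to glycolysis and is made from subunits of 3 types, named platelet (PFKP), liver (PFKL) and muscle (PFKM). PFKP had 205, 223 and 220 CPM in untreated libraries, 356, 390 and 380 with EGF and 217, 269 and 241 with bleogen pB1. PFKL had 124, 128 and 125 CPM in untreated libraries, 91.0, 87.8 and 92.1 with EGF and 127, 129 and 132 with bleogen pB1. In both genes the EGF libraries stood apart from the 6 others, PFKP above and PFKL below. PFKP rose with EGF (0.80 ± 0.08, adjusted p = 1.73e-06). For PFKL the log2 fold change with EGF was -0.48 ± 0.05 (adjusted p = 4.1e-06), just under the limit against untreated cells, and it passed against bleogen pB1 (-0.52 ± 0.05, adjusted p = 3.24e-06), except without EGF replicate 2 (-0.49) or bleogen pB1 replicate 3 (-0.50). PFKL passed against untreated cells as well with upper-quartile factors (-0.58), without scaling factors (-0.54) and in limma on log2(FPKM + 1) (-0.53). PFKM had a log2 fold change of 0.36 with EGF (adjusted p = 0.00209).

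The PFKFB genes encode enzymes that make and remove fructose 2,6-bisphosphate, the strongest activator of phosphofructokinase, and PFKFB3 is the form with the highest kinase over phosphatase activity. PFKFB3 had 34.9, 31.7 and 34.6 CPM in untreated libraries, 54.1, 49.2 and 55.2 with EGF and 32.8, 37.4 and 34.6 with bleogen pB1. EGF stood higher than the 6 other libraries, which overlapped. PFKFB3 rose with EGF against untreated cells (0.65 ± 0.08, adjusted p = 9.94e-06) and against bleogen pB1 (0.60 ± 0.08, adjusted p = 2.95e-05), where limma on log2(FPKM + 1) gave 0.46, under the limit.

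PFKFB4, a form induced by hypoxia, had 11.3, 12.9 and 11.0 CPM in untreated libraries, 11.8, 15.8 and 14.1 with EGF and 9.98, 7.89 and 8.52 with bleogen pB1. The 3 bleogen pB1 libraries were the lowest, and EGF overlapped the untreated group. PFKFB4 was higher with EGF than with bleogen pB1 (0.66 ± 0.13, adjusted p = 0.000973), a call lost in limma on log2(FPKM + 1) (0.44). Against untreated cells, neither EGF (0.24 ± 0.13, adjusted p = 0.119) nor bleogen pB1 (-0.42 ± 0.13, adjusted p = 0.0917) passed the test. Without bleogen pB1 replicate 1, PFKFB4 fell with bleogen pB1 (-0.52, adjusted p = 0.0343 in edgeR). PFKFB2, the form first described in heart, had a log2 fold change of -0.24 with EGF (adjusted p = 0.0287) and -0.38 with bleogen pB1 (adjusted p = 0.0362), both short of the limit of 0.5, and all 6 treated libraries lay under the untreated ones.

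Of 9 genes of lower glycolysis, from aldolase to pyruvate kinase, 3 rose with EGF (PGK1, ENO1 and PKM), 1 fell (ALDOC) and 5 did not pass. Over all genes tested, 15.1% rose and 21.8% fell. PKM encodes pyruvate kinase of the M1 and M2 forms, which releases pyruvate and ATP. Its CPM was 2501, 2527 and 2432 in untreated libraries, 4207, 4278 and 4077 with EGF and 2555, 2894 and 2658 with bleogen pB1. All EGF libraries were far above the rest, and the bleogen pB1 libraries lay just above the untreated ones. PKM rose with EGF (0.75 ± 0.06, adjusted p = 5.18e-07), and with bleogen pB1 its log2 fold change was 0.12 ± 0.06 (adjusted p = 0.281). The gene table does not separate the M1 from the M2 transcripts.

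ENO1, the main enolase, had 1408, 1480 and 1480 CPM in untreated libraries, 2382, 2213 and 2330 with EGF and 1503, 1818 and 1644 with bleogen pB1. PGK1, the phosphoglycerate kinase that makes the first ATP of the pathway, had 399, 421 and 416, then 604, 635 and 649 with EGF and 446, 524 and 479 with bleogen pB1. For both genes the order was the same, with EGF highest, bleogen pB1 between and untreated lowest, and no 2 groups overlapped. ENO1 (0.67 ± 0.07, adjusted p = 4.44e-06) and PGK1 (0.61 ± 0.07, adjusted p = 4.11e-06) rose with EGF. With bleogen pB1 the estimates were 0.18 ± 0.07 (adjusted p = 0.151) for ENO1 and 0.23 ± 0.07 (adjusted p = 0.0655) for PGK1, which did not pass.

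GAPDH, the glyceraldehyde phosphate dehydrogenase often used as a reference gene, had 5574, 5779 and 5542 CPM in untreated libraries, 6485, 6551 and 6239 with EGF and 5488, 6042 and 5679 with bleogen pB1. All EGF libraries exceeded the others, by 0.19 ± 0.06 (adjusted p = 0.0144) on the log2 scale against untreated cells, which is under the limit of 0.5. TPI1 and PGAM1, which interconvert triose phosphates and phosphoglycerates, had log2 fold changes with EGF of 0.38 (adjusted p = 0.000108) and 0.36 (adjusted p = 0.000436), also under it. ALDOA, the main aldolase, had 0.13 with EGF (adjusted p = 0.119) and -0.25 with bleogen pB1 (adjusted p = 0.0661). ENO2, the enolase of neurons, was near the floor at 0.337 to 1.25 CPM, and its estimates had an SE of 0.35 to 0.37.

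ALDOC, a minor aldolase best known from brain, was the gene lowered by both treatments. Its CPM was 39.1, 40.5 and 40.9 in untreated libraries, 25.6, 29.3 and 27.4 with EGF and 29.4, 25.5 and 27.2 with bleogen pB1. All 6 treated libraries lay below the untreated ones, and the treated groups overlapped each other. ALDOC fell with EGF (-0.55 ± 0.08, adjusted p = 4.7e-05) and with bleogen pB1 (-0.55 ± 0.08, adjusted p = 0.0016), and the difference of EGF from bleogen pB1 was 0.01 ± 0.08 (adjusted p = 0.955). Without EGF replicate 1 the estimate for EGF came to -0.50 and the call was lost, whereas the call for bleogen pB1 held in 18 of 18 alternatives.

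All 4 genes of lactate formation and export rose with EGF, with a median log2 fold change of 0.74, and 0 of 4 passed the test with bleogen pB1. Over all genes tested, 15.1% rose with EGF and 1.48% passed with bleogen pB1. LDHA encodes the muscle subunit of lactate dehydrogenase, which favours the step from pyruvate to lactate. Its CPM was 751, 813 and 771 in untreated libraries, 1564, 1350 and 1413 with EGF and 909, 1190 and 992 with bleogen pB1. The groups did not overlap, with EGF highest and untreated lowest. LDHA rose with EGF (0.89 ± 0.09, adjusted p = 3.17e-06). With bleogen pB1 the estimate of 0.41 ± 0.09 (adjusted p = 0.0293) passed the adjusted p and not the limit on the fold. LDHB, the heart subunit, rose with EGF (0.58 ± 0.08, adjusted p = 2.84e-05), from 257 to 293 CPM in untreated libraries to 374 to 422, and its call was lost with upper-quartile factors (0.48).

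SLC16A1 and SLC16A3 encode the transporters MCT1 and MCT4, of which MCT4 is the form of cells that export lactate. SLC16A3 had 40.2, 39.3 and 36.6 CPM in untreated libraries, 77.8, 107 and 92.6 with EGF and 29.8, 30.6 and 32.6 with bleogen pB1. The EGF libraries were the highest and the bleogen pB1 libraries the lowest, with no overlap between any groups. SLC16A3 rose with EGF against untreated cells (1.25 ± 0.10, adjusted p = 3.42e-07), and the difference from bleogen pB1 was 1.57 ± 0.10 (adjusted p = 7.42e-08), the largest of the 34 genes in that comparison. Bleogen pB1 against untreated gave -0.32 ± 0.10 (adjusted p = 0.0908), which did not pass. SLC16A1 had 147, 140 and 148 CPM in untreated libraries, 234, 208 and 212 with EGF and 151, 183 and 167 with bleogen pB1. It rose with EGF (0.59 ± 0.07, adjusted p = 1.4e-05), and the call was lost with upper-quartile factors (0.48). Its estimate with bleogen pB1 was positive (0.20 ± 0.07, adjusted p = 0.121), opposite in sign to that of SLC16A3, and neither passed the test.

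Windows of 250 bases upstream of the annotated transcription start were read from RefSeq (GRCh38.p14) for 33 of the 36 genes, 63 windows in all. They were searched on both strands for ACGTG, the core of the element bound by HIF1, and for CACGTG, the E-box that MYC and other factors bind, which contains ACGTG. The first was present in 22 of the 63 windows, or 34.9%, beside 18.5% of 35116 windows of all genes, and the second in 8, or 12.7%, beside 6.3%. The GC content of the windows differed as well, with a median of 68.0% against 58.0%, and its part in these shares was not tested. Among genes that rose with EGF, 7 of 21 windows held ACGTG, and among those that fell 4 of 8. For the other genes tested, 11 of 33 windows held it. Counted by gene, with a match in any window of the gene, the numbers were 6 of 11, 4 of 4 and 9 of 17 in the same order. The share by gene over all genes is not given, so the counts by gene cannot be set beside the 18.5% of windows. A match is a description of the letters and not of binding. The windows of 3 genes that rose with EGF and of ALDOC are shown from 5′ to 3′ on the strand of the gene, with ACGTG on either strand in capitals.
LDHA (chr11:18394313-18394562, plus strand): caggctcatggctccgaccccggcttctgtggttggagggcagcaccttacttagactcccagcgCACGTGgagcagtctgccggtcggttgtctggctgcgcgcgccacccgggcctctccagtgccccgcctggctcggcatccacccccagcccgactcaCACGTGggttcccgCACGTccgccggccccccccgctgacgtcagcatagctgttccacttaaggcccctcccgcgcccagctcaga
PGK1 (chrX:78103998-78104247, plus strand): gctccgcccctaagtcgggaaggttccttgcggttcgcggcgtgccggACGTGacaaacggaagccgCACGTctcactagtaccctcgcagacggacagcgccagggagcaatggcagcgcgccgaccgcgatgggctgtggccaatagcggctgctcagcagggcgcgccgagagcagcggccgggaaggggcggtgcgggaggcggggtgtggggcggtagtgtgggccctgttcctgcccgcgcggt
PKM (chr15:72231191-72231440, minus strand): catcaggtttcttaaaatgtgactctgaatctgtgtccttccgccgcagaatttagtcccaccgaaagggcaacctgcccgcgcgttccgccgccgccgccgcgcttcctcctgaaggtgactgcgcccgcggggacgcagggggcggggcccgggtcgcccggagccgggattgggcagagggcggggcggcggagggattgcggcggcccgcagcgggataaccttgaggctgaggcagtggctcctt
ALDOC (chr17:28576896-28577145, minus strand): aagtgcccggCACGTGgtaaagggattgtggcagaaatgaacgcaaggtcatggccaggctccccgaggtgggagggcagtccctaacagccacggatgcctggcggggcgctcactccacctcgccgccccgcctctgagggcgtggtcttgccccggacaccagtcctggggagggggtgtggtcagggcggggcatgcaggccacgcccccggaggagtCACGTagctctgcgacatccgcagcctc
LDHA held 3 such runs, which began 185, 87 and 73 bases before the start, PGK1 held 2 at 202 and 183 bases, and ALDOC held 2 at 240 and 28 bases. PKM, which rose with EGF, held 0 in this window.

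The pyruvate dehydrogenase kinases switch off pyruvate dehydrogenase, which oxidizes pyruvate inside the mitochondria. PDK3 had 6.60, 7.07 and 7.83 CPM in untreated libraries, 3.60, 3.98 and 3.75 with EGF and 5.73, 5.94 and 6.70 with bleogen pB1. The EGF libraries were the lowest and did not overlap the others. PDK3 fell with EGF (-0.92 ± 0.14, adjusted p = 6.29e-05), and on log2(FPKM + 1) in limma, where the pseudocount weighs on a low gene, the estimate was -0.42. FPKM also depends on the deposited mean length of PDK3, which was 4653, 4544 and 4481 bases in untreated libraries. With EGF it was 4040, 3996 and 3770 bases (adjusted p = 0.346 in limma) and with bleogen pB1 3973, 3289 and 4239. In limma on log2(FPKM + 0.1), which rests on the same lengths, PDK3 kept its call with EGF against untreated cells. The part of length in the lower estimate was not tested. PDK2 had 11.4, 11.4 and 10.2 CPM in untreated libraries, 6.30, 9.01 and 6.88 with EGF and 12.2, 6.87 and 10.1 with bleogen pB1. Its EGF libraries lay under the untreated ones, and bleogen pB1 replicate 2 lay among the EGF libraries. PDK2 fell with EGF (-0.58 ± 0.19, adjusted p = 0.0168), a call that was lost without untreated replicate 2, EGF replicate 1 or EGF replicate 3 (adjusted p of 0.0509, 0.0521 and 0.0612 in edgeR). Against bleogen pB1 the estimate for PDK2 was -0.39 ± 0.19 (adjusted p = 0.0948), which passed without EGF replicate 2 (-0.55) or bleogen pB1 replicate 2 (-0.59). PDK1, a target of HIF1, had 14.7, 13.2 and 15.7 CPM in untreated libraries, 17.5, 17.1 and 16.9 with EGF and 13.1, 16.2 and 13.9 with bleogen pB1. The EGF libraries lay above the other groups, by 0.24 ± 0.10 (adjusted p = 0.0553) against untreated cells, which did not pass.

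Of 6 pentose phosphate genes, RPIA rose with EGF and 0 fell, beside 15.1% and 21.8% of all genes tested. RPIA, which interconverts ribulose and ribose 5-phosphate, had 16.1, 17.2 and 17.0 CPM in untreated libraries, 28.2, 27.9 and 30.3 with EGF and 16.1, 22.6 and 19.7 with bleogen pB1. With EGF, RPIA lay above all other libraries, and bleogen pB1 overlapped untreated. RPIA rose with EGF (0.78 ± 0.11, adjusted p = 3.88e-05). It was also higher than with bleogen pB1 (0.56 ± 0.11, adjusted p = 0.000635), a call lost without bleogen pB1 replicate 1 (0.45), with upper-quartile factors (0.48) and without scaling factors (0.49).

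PGD, the 6-phosphogluconate dehydrogenase that yields NADPH, had 482, 469 and 500 CPM in untreated libraries, 496, 536 and 516 with EGF and 359, 354 and 352 with bleogen pB1. The bleogen pB1 libraries were tightly grouped and below all 6 others, and EGF overlapped untreated. The estimate for bleogen pB1 was -0.45 ± 0.05 (adjusted p = 0.000655), the smallest adjusted p of the 34 genes in that comparison, and short of the limit of 0.5 on the log2 scale. PGD was higher with EGF than with bleogen pB1 (0.54 ± 0.05, adjusted p = 3.76e-06), which fell to 0.45 with upper-quartile factors, 0.47 without scaling factors and 0.45 in limma on log2(FPKM + 1).

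PGLS, the lactonase of the oxidative branch, had 95.8, 98.0 and 97.8 CPM in untreated libraries, 66.4, 81.1 and 72.8 with EGF and 86.9, 75.1 and 81.3 with bleogen pB1. All 6 treated libraries lay below the untreated ones. Its log2 fold changes were -0.40 ± 0.08 (adjusted p = 0.00046) with EGF and -0.26 ± 0.08 (adjusted p = 0.0722) with bleogen pB1, and neither reached the limit. In the branch without oxidation, which exchanges carbon units between sugars, TKT had -0.17 with EGF (adjusted p = 0.027) and TALDO1 0.24 (adjusted p = 0.0073). RPE, the ribulose phosphate epimerase, overlapped between all groups, with 0.01 for EGF and 0.05 for bleogen pB1 (adjusted p = 0.949 and 0.701).

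The make-up of isozymes was described from FPKM, which compares genes per length, as a share of the summed FPKM of the forms of an enzyme. These shares were not tested. HK2 made up 9.23, 8.78 and 9.56% of hexokinase FPKM (HK1 and HK2) in untreated libraries, 20.1, 18.2 and 20.0% with EGF and 9.04, 12.9 and 11.5% with bleogen pB1. PFKP held 57.1 ± 0.452% of phosphofructokinase FPKM in untreated cells, 72.1 ± 1.97% with EGF and 58.1 ± 2.30% with bleogen pB1 (SD, n = 3). The share of PFKL was 29.1 ± 1.05%, 15.1 ± 0.569% and 27.4 ± 1.93% in the same order. The EGF libraries did not overlap the other groups in either share, while PFKM held between 11.5 and 15.2% in the 9 libraries.

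SLC16A3 held 34.6, 35.2 and 32.4% of the FPKM of the MCT1 and MCT4 genes in untreated libraries, 39.1, 49.7 and 45.7% with EGF and 27.6, 24.5 and 27.4% with bleogen pB1. The 3 groups did not overlap, and the treated groups lay on opposite sides of the untreated one. PFKFB3 held 45.3 ± 1.69% of the FPKM of PFKFB2, PFKFB3 and PFKFB4 in untreated cells, 56.1 ± 1.60% with EGF and 52.9 ± 3.37% with bleogen pB1. Both treated groups lay above the untreated one. From untreated to bleogen pB1, the mean FPKM went from 8.06 to 8.47 for PFKFB3, 6.38 to 5.00 for PFKFB2 and 3.33 to 2.54 for PFKFB4. LDHA held 62.7 ± 1.94%, 67.7 ± 1.08% and 65.7 ± 1.12% of lactate dehydrogenase FPKM, and PDK1 held 34.2 ± 2.42%, 48.1 ± 4.24% and 35.8 ± 5.31% of the FPKM of the 4 kinases, in the order untreated, EGF and bleogen pB1 (SD, n = 3). From untreated to EGF, the mean FPKM went from 3.17 to 3.60 for PDK1, 4.44 to 2.94 for PDK2 and 1.61 to 0.947 for PDK3. ALDOC was a minor part of aldolase in every library, at 1.25 to 2.11% of the FPKM of ALDOA and ALDOC. ENO2 was at most 0.0541% of enolase.

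**Figure D3:**
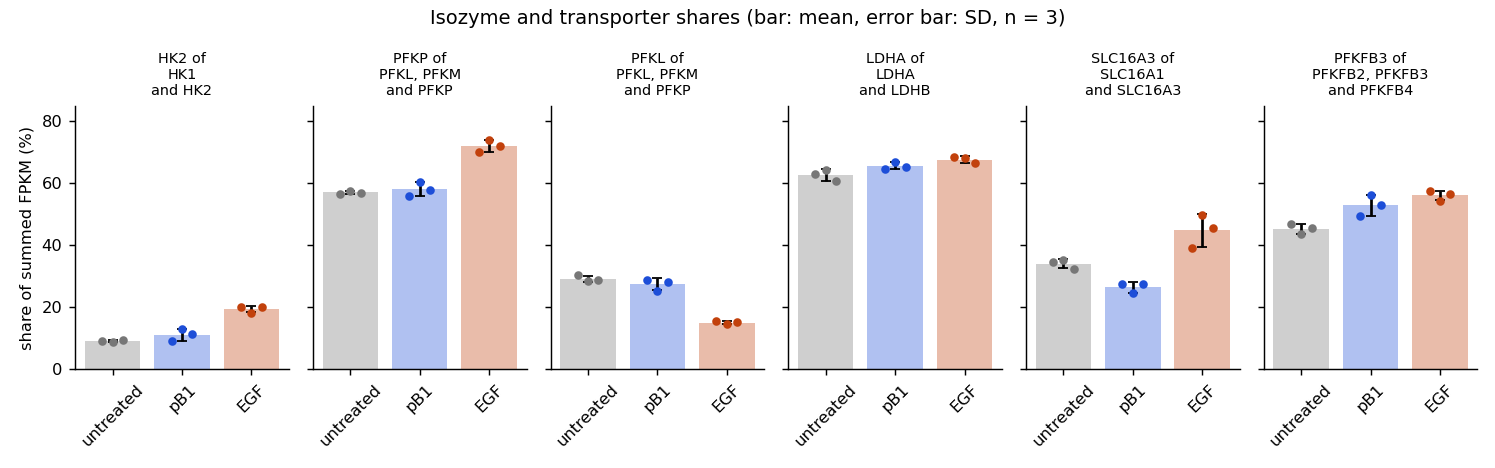
Bars are the mean share (%) of the named gene in the summed FPKM of the genes given above each panel, error bars are the SD over 3 libraries and points are single libraries. The EGF share is apart from both other groups for HK2 and PFKP (above) and PFKL (below), and for SLC16A3 the bleogen pB1 libraries lie under the untreated ones.

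A second readout, the mean transcript length of a gene in each library as the authors deposited it, moves when a gene's reads are assigned to longer or shorter transcripts. It could be tested in 25 of the 36 genes. With EGF, limma found a change in PFKFB2 and TKT, 2 genes, beside 2.06% of the 7362 genes tested, and bleogen pB1 gave 0, beside 0.0815%. For PFKFB2 the length was 6466, 6509 and 6559 bases in untreated libraries, 6160, 5941 and 6045 with EGF and 6550, 6439 and 6438 with bleogen pB1. The EGF libraries were the shortest, with a log2 difference of -0.11 from untreated cells (adjusted p = 0.0209), and also differed from bleogen pB1 (adjusted p = 0.0367), where PFKFB2 was the gene called, beside 1.01% of all genes. For TKT the change was 0.0093 on the log2 scale (adjusted p = 0.0355), from 2199 to 2203 bases in untreated libraries to 2212 to 2218. Against untreated cells, 0 of these calls were left without any 1 of the untreated libraries or EGF replicate 3, and 1 without EGF replicate 1 or 2. Against bleogen pB1, 0 were left without EGF replicate 2 or 3 or any 1 of the bleogen pB1 libraries.

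A list of 70 genes next to these pathways holds other isozymes and transporters, mitochondrial pyruvate genes, genes that oppose or restrain glucose use, other pentose genes, genes of glycogen and UDP-sugars and other genes linked to hypoxia. Of the 54 tested, 10 rose and 11 fell with EGF, beside 15.1% and 21.8% of all genes tested, with a median log2 fold change of -0.11 beside -0.013 over all genes. With bleogen pB1, 0 rose and 4 fell, beside 0.218% and 1.26% of all genes. The falls numbered 2 without untreated replicate 1, 1 without bleogen pB1 replicate 3 and 6 without bleogen pB1 replicate 1. The genes called in each of these fits are not given. Against bleogen pB1, EGF gave 10 higher and 10 lower, beside 10.8% and 18.0% of all genes. With upper-quartile factors the EGF split was 6 higher and 15 lower against untreated cells and 6 and 10 against bleogen pB1, and without scaling factors it was 8 and 14 against untreated cells.

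Glycogen and UDP-sugar genes had 3 of 9 higher with EGF and 0 lower, beside 15.1% and 21.8% of all genes tested. PYGB, the brain form of glycogen phosphorylase, which frees glucose 1-phosphate from glycogen, had 143, 144 and 149 CPM in untreated libraries, 441, 431 and 447 with EGF and 152, 153 and 155 with bleogen pB1. All EGF libraries were far above the other 6. PYGB rose with EGF (1.60 ± 0.05, adjusted p = 1.58e-10), as did GBE1, the branching enzyme (0.56), and GFPT1, which opens the hexosamine pathway (0.60). Of 11 genes of mitochondrial pyruvate use, 2 rose and 0 fell with EGF, beside the same 15.1% and 21.8% of all genes. They were PC, the pyruvate carboxylase (0.81), and PDP2, the phosphatase that opposes the PDK kinases (0.55). Both were also higher with EGF than with bleogen pB1 (0.90 and 0.88).

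Genes that oppose or restrain glucose use went in both directions. TXNIP, which restrains glucose uptake, had 471, 493 and 405 CPM in untreated libraries, 107, 208 and 158 with EGF and 391, 196 and 302 with bleogen pB1. All 6 treated libraries were below the untreated ones, and the treated groups overlapped. TXNIP fell with EGF (-1.53 ± 0.23, adjusted p = 8.42e-05) and had a log2 fold change of -0.62 with bleogen pB1 (adjusted p = 0.132). Its relative ARRDC4, also known to respond to glucose, had 19.1, 22.7 and 19.0 CPM in untreated libraries, 30.1, 61.5 and 46.5 with EGF and 16.7, 19.7 and 18.0 with bleogen pB1. ARRDC4 rose with EGF (1.18 ± 0.19, adjusted p = 0.000145), opposite to TXNIP. FBP1, the fructose bisphosphatase of glucose synthesis, fell with EGF (-1.68) and TIGAR, a phosphatase that lowers fructose 2,6-bisphosphate, rose (0.51). With bleogen pB1, PCK2, the mitochondrial phosphoenolpyruvate carboxykinase, fell (-0.57 ± 0.08, adjusted p = 0.00183).

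Among other pentose genes, PRPS1, which makes phosphoribosyl pyrophosphate for nucleotides, rose with EGF (0.75 ± 0.07, adjusted p = 1.63e-06) and H6PD, the NADPH-forming dehydrogenase of the endoplasmic reticulum, fell (-1.21 ± 0.08, adjusted p = 5.33e-08). RBKS, the ribokinase, fell as well (-2.95), at 2.07 to 2.53 CPM in untreated libraries and 0.151 to 0.450 with EGF. Among other transporters, SLC2A12 (GLUT12) had 15.5, 16.0 and 14.1 CPM in untreated libraries, 3.05, 2.87 and 3.75 with EGF and 12.7, 8.86 and 9.88 with bleogen pB1. The 3 groups did not overlap, with EGF lowest, and SLC2A12 fell with EGF (-2.23 ± 0.16, adjusted p = 1.38e-07) and with bleogen pB1 (-0.54 ± 0.14, adjusted p = 0.0495). The call with bleogen pB1 was close to both limits. SLC2A8 (-0.62) and SLC2A13 (-0.54) fell with EGF and SLC2A6 (-0.60) with bleogen pB1. Of 4 other isozymes tested, ENO3 (-0.98) and LDHD (-2.03) fell with EGF, both at most at 1.22 CPM in any library. Over all genes tested, 21.8% fell with EGF.

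Of 10 tested genes linked to hypoxia but outside glycolysis, 2 rose and 2 fell with EGF, beside 15.1% and 21.8% of all genes tested. NDRG1, a stress-induced gene, had 50.1, 48.1 and 46.7 CPM in untreated libraries, 85.7, 87.0 and 87.3 with EGF and 55.0, 54.1 and 49.8 with bleogen pB1. NDRG1 rose with EGF (0.84 ± 0.06, adjusted p = 1.63e-07), and ANKRD37 rose (1.07) at 0.246 to 1.30 CPM. CA9, the carbonic anhydrase IX that is a classic mark of hypoxia, had 1.49, 2.60 and 2.10 CPM in untreated libraries, 0.550, 0.504 and 0.433 with EGF and 1.96, 2.46 and 1.50 with bleogen pB1. CA9 (-2.05) and MXI1 (-1.61), an antagonist of MYC, fell with EGF. DDIT4, an inhibitor of mTOR signalling, had 287, 300 and 311 CPM in untreated libraries, 151, 284 and 220 with EGF and 177, 147 and 158 with bleogen pB1. The bleogen pB1 libraries were below all untreated libraries, and DDIT4 fell with bleogen pB1 (-0.90 ± 0.16, adjusted p = 0.00829). With EGF its estimate was -0.46 (adjusted p = 0.0234), with EGF replicate 1 far below replicate 2.

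**Figure D4:**
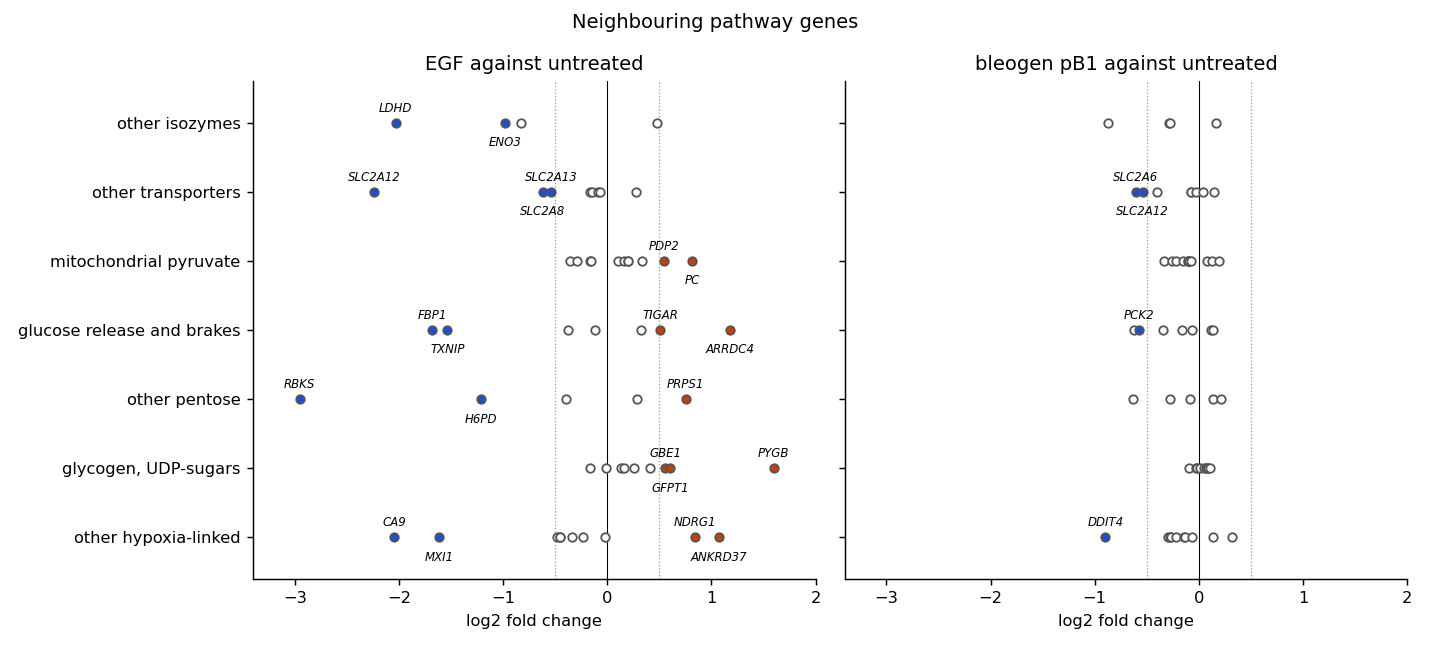
Points are log2 fold changes of the 54 tested neighbouring genes against untreated cells by list, for EGF (left) and bleogen pB1 (right), filled red or blue and named where the gene rose or fell, with dotted lines at 0.5 and -0.5. EGF gave 10 rises and 11 falls, from RBKS at -2.95 to PYGB at 1.60, and bleogen pB1 gave 4 falls.

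The close relatives SLC2A14, PGAM4, RPEL1, LDHAL6A and LDHAL6B held at most 9.9 counts in any library, so that few reads were assigned to them in place of SLC2A3, PGAM1, RPE or LDHA.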

How the data were processed

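RNA was sequenced at BGI and mapped to GRCh38.p12 per the labels, and the expected counts, FPKM and gene lengths deposited by the authors were used. Expected counts, as deposited, are unscaled estimates per gene. FPKM, as deposited, is scaled by length and depth, and the length deposited by the authors is a mean over transcripts. The counting program, and whether strand was used, are not given in the sources used here. Genes without an entry counted as 0. Counts were rounded and tested in edgeR 4.0.16 (R 4.3.3) with filterByExpr, TMM, glmQLFit and glmQLFTest on all 9 libraries (6 residual degrees of freedom) with Benjamini-Hochberg adjustment, and the SE is the absolute log2 fold change over the square root of F. Printed CPM are scaled with TMM factors, except those of the markers and of the floor of 3 counts, which use library totals. A floor of 3 counts covers counting error only. log2 lengths were tested with limma 3.58.1. Alternatives used DESeq2 1.42.0, limma on log2(FPKM + 1) and other scalings, filters and subsets. The scripts were tested on simulated data. The members and lists were chosen with earlier results of these data known. Of each neighbouring list, the genes named are the called genes with the smallest adjusted p (at most 3 per comparison with at least 50 counts on average) and those of any count of 5 or fewer. Some genes of these pathways are not reported here. Promoter windows came from RefSeq, and SLC2A3, PFKFB2 and SLC16A1 had no window.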

Additional observations from a re-analysis of the deposited data

How the results depend on the processing

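Of 1829 recomputed values of single genes of the 36, 1762 kept their side of the threshold, 51 lost their call and 16 gained one. Of values called in either fit, 0 reversed their direction. The 1762 include 57 values, called in neither fit, that changed sign. In EGF against untreated, HK2, PFKP, PFKFB3, PGK1, ENO1, PKM, LDHA, SLC16A3 and RPIA kept their call in 18 of 18 alternatives. SLC2A1 and PDK2 kept it in 12 of 18 and PDK3 in 15. In EGF against bleogen pB1, HK2, PFKP, PKM and SLC16A3 kept it in 18 of 18, and RPIA, with the fewest, in 11. DESeq2 called 12 of the 36 genes higher and 4 lower with EGF. The cause of the changes given here was not tested, except that other thresholds count differently by construction.

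By adjusted p alone, the genes of the 36 that were higher and lower numbered 19 and 8 for EGF and 1 and 3 for bleogen pB1 against untreated, and 21 were higher with EGF than with bleogen pB1. Neighbouring genes then numbered 20 higher and 19 lower with EGF against untreated and 20 higher against bleogen pB1. Of all genes tested, 32.4% were higher and 33.6% lower with EGF against untreated by this rule. With bleogen pB1 1.56% were higher and 2.55% lower, and 28.5% were higher with EGF than with bleogen pB1. At a log2 fold change of at least 1, EGF left 2 of the 36 higher and 0 lower against untreated and 2 and 0 against bleogen pB1, and bleogen pB1 left 0 lower. For neighbouring genes this limit left 3 higher with EGF in either comparison, 5 lower against bleogen pB1 and 0 lower with bleogen pB1. Upper-quartile factors gave 6 neighbouring genes higher with EGF in either comparison. limma on log2(FPKM + 1), with or without a filter, gave 4 of the 36 genes and 5 neighbouring genes higher with EGF than with bleogen pB1, 5 neighbouring genes higher with EGF than in untreated cells, and 2 neighbouring genes lower with bleogen pB1, or 1 with no filter. limma on log2(FPKM + 0.1) gave 5 of the 36 and 6 neighbouring genes higher with EGF than with bleogen pB1. The share of all genes called at the limit of 1, or in any alternative fit counted in this report, is not given.

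When 1 library was left out, 2 to 4 of the 36 genes were lower with EGF, 0 to 1 were higher and 1 to 2 lower with bleogen pB1, and 1 to 6 neighbouring genes were lower with bleogen pB1. The lowest values came without EGF replicate 1 (2 lower) and without bleogen pB1 replicate 3 (1 neighbouring gene), and the highest for bleogen pB1 without its replicate 1. Length calls numbered 0 to 1 in both EGF comparisons. With the replicate number as a block, length calls numbered 1 for EGF against untreated and 0 against bleogen pB1, and 12 of the 36 genes were higher and 4 lower with EGF against untreated, 0 and 1 with bleogen pB1, and 9 and 3 for EGF against bleogen pB1. Same-numbered libraries correlated at 0.045, 0.036 and 0.004 between EGF and untreated in their deviations from group means. The values were 0.207, -0.03 and 0.113 between bleogen pB1 and untreated and 0.056, 0.038 and 0.027 between EGF and bleogen pB1. Libraries with different numbers correlated at -0.253 to 0.163. These values cannot tell whether same-numbered libraries shared a batch or a culture. Depth limits SLC2A3, PDK4 and ENO2, which lie near the floor.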
